A study of Saccharomyces cerevisiae with 24 samples.

Results

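The 4 libraries described here are replicate 1 of 2 strains of budding yeast at 72 h and 48 h in calcium chloride, set against the 8 libraries of replicates 2 and 3 in the same 4 groups, out of 24 libraries in all. They were chosen from the measured values: in these same counts the late replicate 1 libraries deviated from their groups together, in both strains. Their separation is therefore a description and carries no test. The strains were a cnb1Δ strain (cnb1delta::KanMx), which lacks the regulatory subunit of the phosphatase calcineurin, and its WT parent. Both were Saccharomyces cerevisiae in the BY4741 background, haploid MATa his3delta1 ura3delta0 leu2delta0 lys2delta0, and both carried HYG-TEFp-GFP(Y66F) on chromosome VI. Cultures in synthetic medium with ammonium chloride as nitrogen source were given 200 mM CaCl2 and diluted each 12 h, which per the labels kept them in logarithmic growth. Samples were taken before CaCl2 (0 h) and after 12, 48 and 72 h, in 3 replicates each. No culture without CaCl2 after 0 h was analysed here. The labels call the replicates separate time courses. The 48 h and 72 h libraries of a strain may thus share a culture, so that 4 libraries may stand for 2 cultures. They give no date, batch or cell density, so the replicate number cannot be told apart from whatever else these cultures shared.

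Polyadenylated RNA was counted per gene, and the totals ran between 18843220 and 22250806 counts per library. Levels are given as CPM, the count relative to the library size, after TMM scaling, which sets libraries to a common middle of the genes. CNB1 had 0 to 23 counts in the cnb1Δ libraries and 996 to 3320 in the WT libraries, as the strain labels have it. The deleted markers URA3 and LEU2 had 0 counts throughout, and LYS2 had 1 count in 1 library. The mating type a markers STE2, STE6, MFA1, MFA2, BAR1 and AGA2 summed to 248 to 737 CPM in late replicate 1, against 355 to 944 CPM in late replicates 2 and 3. STE2, STE6, MFA2 and BAR1 each lay lower in replicate 1 than in both other replicates of every late group, and MFA1 and AGA2 did not. Of the 4 markers of mating type alpha, MF(ALPHA)1 and MF(ALPHA)2 stayed at or under 0.272 CPM in the late libraries and STE3 at or under 1.57 CPM, while SAG1 lay at 22.2 to 29.5 CPM. The 6 meiosis markers summed to 35.3 to 40.3 CPM in late replicate 1 and 33.1 to 41.2 CPM in late replicates 2 and 3.

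Yeast cells under many kinds of stress raise a common set of protective genes, driven largely by the factors Msn2 and Msn4 through a short promoter element, and lower the genes for ribosomes at the same time. The same balance follows the growth rate, so that slow cultures resemble stressed ones. Other programmes have their own factors: Upc2 and its partners act on the DAN and TIR cell wall genes and on sterol uptake when oxygen or sterol is short, and the repressor Rfx1 (also called Crt1) leaves the ribonucleotide reductase genes when the DNA checkpoint is active.

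Promoters of 4 genes that stood far above in replicate 1 show these elements. The window shown is 300 bases long and starts 400 bases before the start codon, in the direction of the gene, from the RefSeq R64 genome. Capitals mark every AGGGG or CCCCT (core of the stress response element), TCGTATA or TATACGA (core of the sterol and anaerobic element) and GTTGCC or GGCAAC (an arm of the X-box bound by Rfx1), searched on both strands. These motifs share no overlapping match in the windows shown.
HSP12, chrVI:106856-107155, + strand: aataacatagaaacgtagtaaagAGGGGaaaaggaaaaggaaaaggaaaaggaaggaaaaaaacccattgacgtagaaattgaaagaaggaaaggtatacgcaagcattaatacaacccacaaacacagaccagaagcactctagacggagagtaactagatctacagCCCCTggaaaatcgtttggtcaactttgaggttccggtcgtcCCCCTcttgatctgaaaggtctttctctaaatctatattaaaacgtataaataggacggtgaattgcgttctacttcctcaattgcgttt
DAN1, chrX:709808-710107, − strand: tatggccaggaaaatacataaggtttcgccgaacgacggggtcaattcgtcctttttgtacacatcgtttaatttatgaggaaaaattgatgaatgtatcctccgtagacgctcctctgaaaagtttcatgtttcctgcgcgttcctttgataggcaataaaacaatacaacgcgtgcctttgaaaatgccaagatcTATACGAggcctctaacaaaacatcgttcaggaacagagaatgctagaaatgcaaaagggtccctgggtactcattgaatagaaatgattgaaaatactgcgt
HUG1, chrXIII:158360-158659, + strand: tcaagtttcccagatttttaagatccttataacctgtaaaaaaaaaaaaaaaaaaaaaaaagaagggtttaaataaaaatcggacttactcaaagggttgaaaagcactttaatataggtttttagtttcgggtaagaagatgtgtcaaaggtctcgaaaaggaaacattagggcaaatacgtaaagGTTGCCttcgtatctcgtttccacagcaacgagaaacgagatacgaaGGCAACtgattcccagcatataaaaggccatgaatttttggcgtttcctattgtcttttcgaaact
RNR3, chrIX:240809-241108, − strand: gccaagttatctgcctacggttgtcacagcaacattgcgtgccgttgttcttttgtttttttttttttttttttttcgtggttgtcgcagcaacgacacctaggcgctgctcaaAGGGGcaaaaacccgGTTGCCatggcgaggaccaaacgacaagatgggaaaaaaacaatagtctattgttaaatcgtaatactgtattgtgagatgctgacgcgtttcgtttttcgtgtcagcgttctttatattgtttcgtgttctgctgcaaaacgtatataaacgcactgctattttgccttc

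The HSP12 window held 3 stress element cores, that of DAN1 1 sterol and anaerobic core, that of HUG1 2 X-box arms, and that of RNR3 1 X-box arm and 1 stress core. A match is a description of letters, not of a bound site.

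For each gene the offset of replicate 1 is its log2 CPM minus the mean of replicates 2 and 3 of the same group, averaged over the 4 groups and given ± SD over them. Of 6144 genes past a filter on low counts, replicate 1 lay above both other replicates in all 4 groups for 1176 (19.1%) and below both in all 4 for 814 (13.2%). A gene is called set apart where the offset was also at least 1 in size, a factor of 2. That held for 136 genes above (2.21%) and 21 below (0.342%). Among genes with a standard name, AQY3 (1.005) and UTR2 (−1 after rounding) lay just inside this threshold and ALP1 (0.9995) and ISA1 (−0.98) just outside. For 301 genes (4.90%) the 4 libraries were the 4 highest of all 24, and for 209 (3.40%) the 4 lowest. Scaling by total counts moved the median offset of all genes, 0.02 with TMM, to 0.14, and the deposited TPM moved it to 0.17. The share of genes above among those outside both others in all 4 groups was 59.1% with TMM, 53.8% with RLE size factors, 76.2% with total counts and 84.7% with TPM. The offsets were not of one size. Their SD over genes was 0.46 in cnb1Δ at 72 h, 0.39 in cnb1Δ at 48 h, 0.41 in WT at 72 h and 0.71 in WT at 48 h, where 526 genes lay past 1 upward, against 149, 95 and 106 in the other 3 groups.

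General stress genes were higher in the late replicate 1 cultures, by far the most in WT at 48 h. Of the 33 genes of this list, 24 lay above in all 4 groups and 0 below, with 16 set apart, and the median offset was 1.01 against 0.02 over all genes. The list median was 0.64 in cnb1Δ at 72 h, 0.58 in cnb1Δ at 48 h, 0.66 in WT at 72 h and 2.11 in WT at 48 h. Without WT at 48 h the median over the other 3 groups was 0.64. HSP26 (YBR072W, chromosome II, 382030 to 382674, genome build R64), which encodes a small heat shock protein that holds unfolded proteins, shows the pattern. In cnb1Δ it had 269 CPM at 72 h and 161 at 48 h in replicate 1, against 23.8 and 28.4 (72 h) and 16.5 and 27.9 (48 h) in replicates 2 and 3. In WT it had 645 CPM at 72 h and 714 at 48 h in replicate 1, against 52.9 and 175 (72 h) and 25.8 and 36.9 (48 h) in replicates 2 and 3. Replicate 1 was the high library in each group, though replicate 3 of WT at 72 h lay above replicate 1 of cnb1Δ at 48 h, and at 0 h the gene stood at 5.95 to 7.41 CPM. The offset of HSP26 was 3.39 ± 0.81, a 10.5-fold difference. TMA10, for a small ribosome-associated protein, followed it with 377 and 228 CPM in cnb1Δ and 315 and 356 CPM in WT replicate 1 (72 h and 48 h), against 6.06 to 65.4 CPM in the 8 other late libraries (3.43 ± 0.95). HSP12, for a membrane-stabilising stress protein, had 343 to 498 CPM in the 4 libraries against 33.5 to 229 CPM (2.01 ± 1.21), and the stress gene DDR2 had 35.8 to 83.3 CPM against 2.91 to 29.3 CPM (2.30 ± 1.58). For TMA10, HSP12 and DDR2 the 4 libraries were the highest of all 24. The cytosolic catalase gene CTT1, a classic member of the list, did not share this: it had 2.11 to 5.07 CPM in the 4 libraries and 2.90 to 5.36 CPM in the other 8 (−0.07 ± 0.59), and HOR7 stood at 0.05. In bulk RNA, a larger share of stressed cells and more stress RNA per cell cannot be told apart.

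**Figure D1:**
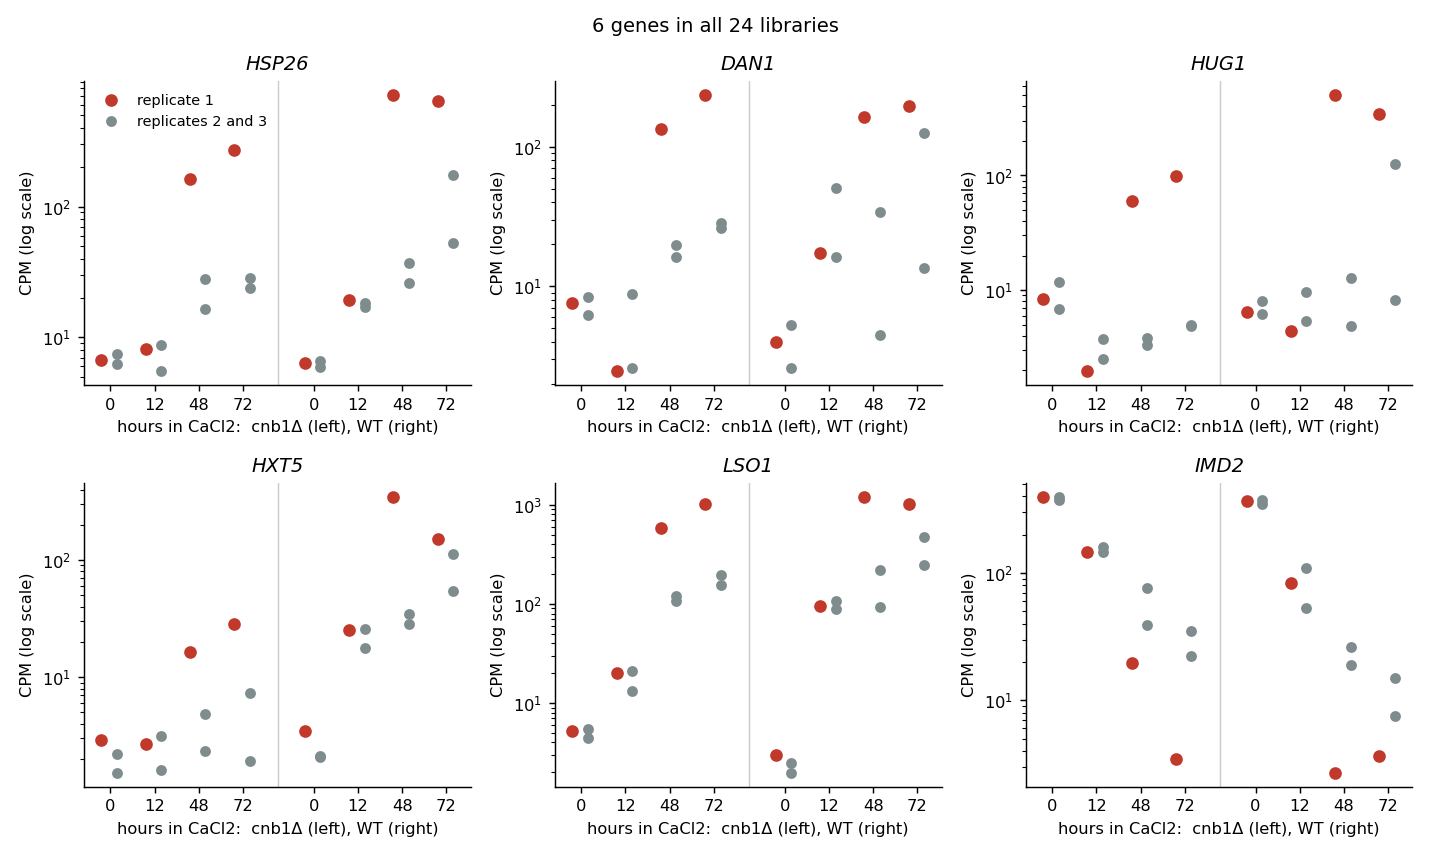
CPM on a log scale for 6 genes in all 24 libraries, by hours in CaCl2, with cnb1Δ left and WT right of the line; red points are replicate 1 and grey points replicates 2 and 3. At 48 h and 72 h replicate 1 lies above both others for HSP26, DAN1, HUG1, HXT5 and LSO1 and below both for IMD2, while at 0 h and 12 h the colours mix.

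Protein-folding genes beyond this list lay closer to the other replicates. Of 20 heat shock chaperone genes 6 lay above in all 4 groups and 0 below, with a median offset of 0.25. HSP78, the mitochondrial disaggregase, was the 1 member set apart (1.03 ± 0.71). SSA1, a cytosolic Hsp70, had 734 to 1076 CPM against 358 to 569.9 CPM in the other late libraries (0.97 ± 0.40), and these were the 4 highest of all 24. HSP82 (1.15 ± 0.65) was above in 3 groups, but in cnb1Δ at 48 h replicate 2 stood at 87.0 CPM beside 84.1 CPM in replicate 1. Of 18 trehalose and glycogen genes, which make and use the storage sugars of stressed or starved yeast, 11 lay above and 1 below, with 5 set apart and a median of 0.61. The glycogen phosphorylase gene GPH1 led with 45.0 to 77.3 CPM in the 4 libraries against 11.8 to 33.2 CPM in the other 8 (1.66 ± 0.70). PGM2, for phosphoglucomutase, had 96.0 to 151 CPM against 27.3 to 63.8 CPM (1.47 ± 0.67), and TSL1, for a trehalose synthase subunit, had an offset of 1.16 ± 0.86. Among 15 genes of slow growth and stationary phase 2 lay above in all 4 groups (13.3%, where 19.1% of all genes did), and the median was 0.19. Among 12 osmotic response genes 1 lay above (8.33%), with a median of 0.15.

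Of 21 oxidant defence genes 6 lay above and 4 below in all 4 groups, near the 19.1% and 13.2% of all genes, and the median was 0.04. TSA2, for the stress-induced peroxiredoxin, had 49.9 to 134 CPM against 23.9 to 82.9 CPM (1.28 ± 0.53). TSA1, for the main peroxiredoxin of growing cells, had 272 to 422 CPM against 493 to 874 CPM (−0.79 ± 0.34). CCP1, for mitochondrial cytochrome c peroxidase, had 6.74 and 10.8 CPM in cnb1Δ and 5.39 and 5.33 CPM in WT (72 h and 48 h) in replicate 1, against 11.2 to 24.2 CPM in the 8 others (−1.14 ± 0.19). For TSA1 and CCP1 the 4 libraries were the lowest of all 24.

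The genes of cytosolic ribosomal proteins were lower in the same libraries, by a smaller factor but nearly as a block. Of 138 cytosolic ribosomal protein genes 0 lay above and 116 below in all 4 groups (13.2% of all genes did), 54 had their 4 lowest values of all 24 libraries in these 4, and the median offset was −0.34. It was −0.21 with total count scaling and −0.17 with TPM, on which the median of all genes moved up as given above. These genes took 16.03% of the counts in cnb1Δ at 72 h, 18.1% in cnb1Δ at 48 h, 17.9% in WT at 72 h and 16.4% in WT at 48 h in replicate 1, against 19.4% to 20.9% in the other 8 late libraries. RPL1A, for a large subunit protein, had 723 and 1029 CPM in cnb1Δ and 806 and 639 CPM in WT (72 h and 48 h) in replicate 1, against 1062 to 1383 CPM in the other 8 (−0.63 ± 0.28). Replicate 1 was below both others in each group. Of 62 ribosome biogenesis genes 0 lay above and 10 below (16.1%, near the 13.2% of all genes). Their median of −0.20 came mostly from WT at 48 h (−0.51) and was 0.01 in WT at 72 h. Of 37 translation factor genes 1 lay above and 9 below (24.3%, median −0.22). HYP2, for the translation factor eIF5A of aerobic cells, was furthest down, with 429 to 781 CPM in replicate 1 against 846 to 1516 CPM (−0.90 ± 0.39).

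**Figure D2:**
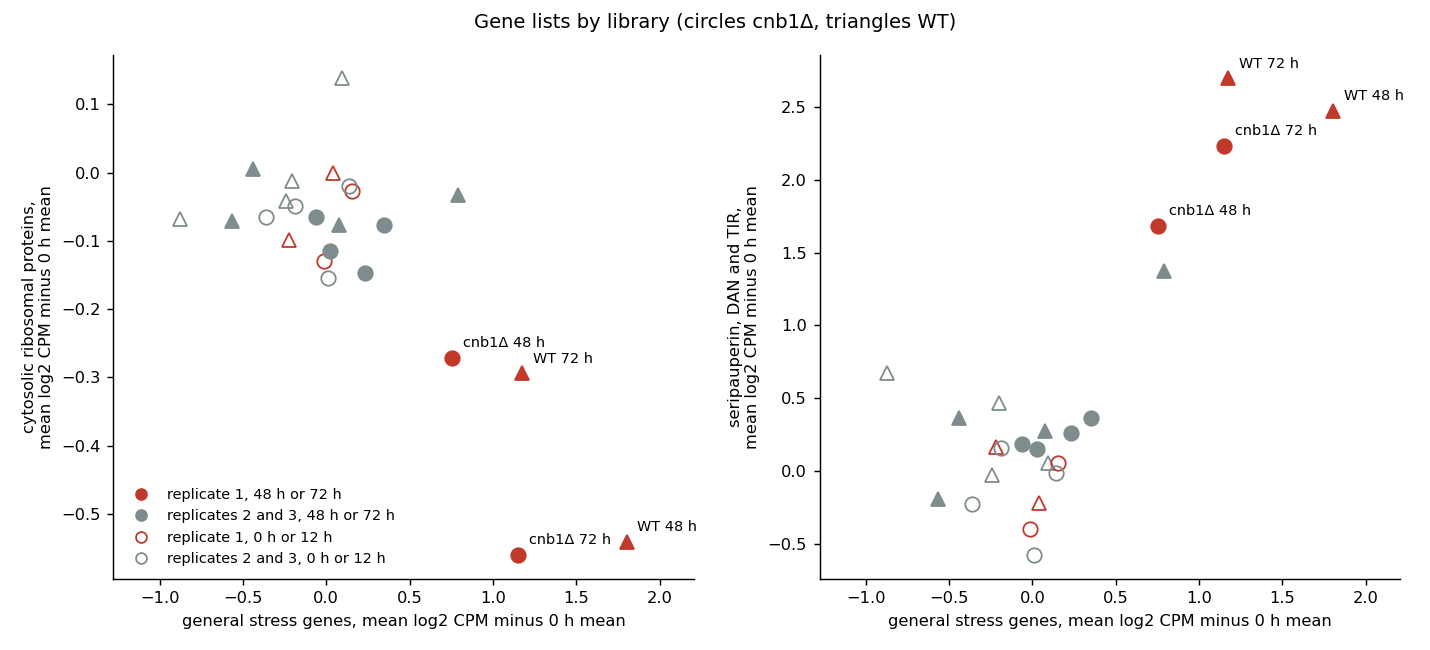
Each point is 1 library, placed by the mean log2 CPM of general stress genes (horizontal) and of ribosomal protein genes (left) or seripauperin, DAN and TIR genes (right), relative to the mean of the 0 h libraries; filled red points are replicate 1 at 48 h or 72 h, circles cnb1Δ and triangles WT. The 4 filled red points lie lowest in the left panel and highest in the right panel. Replicate 3 of WT at 72 h (stress 0.79, seripauperin, DAN and TIR 1.37) lies nearest to them in both panels. On the stress axis it lies further right than replicate 1 of cnb1Δ at 48 h (0.75).

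The cell cycle lists gave no such block. Of 21 G1/S genes 2 lay above in all 4 groups (9.52%, where 19.1% of all genes did) and 0 below, with a median of 0.30. RNR1 led them (0.81 ± 0.25), while the G1 cyclin gene CLN2 had −0.46 ± 0.42 without leaving the other replicates in all groups. Of 8 core histone genes 0 lay outside in all 4 groups. Of 13 M/G1 genes 5 lay below (median −0.15, but 0.03 with TPM), with DSE2, for a daughter-cell wall enzyme, at 521 to 1414 CPM in replicate 1 against 1144 to 1883 CPM (−0.71 ± 0.44).

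The strongest list was that of the seripauperin (PAU), DAN and TIR genes, which encode cell wall mannoproteins of cells short of oxygen. Of 21 measured, 17 lay above in all 4 groups, 0 below and 14 were set apart, with a median offset of 1.98 and 12 genes at their 4 highest values of all 24 libraries. Many PAU genes are near-identical copies whose reads cannot be assigned with certainty, so PAU5 and PAU17 are uncertain one by one. DAN1 (YJR150C, chromosome X, 708811 to 709707) had 235 CPM at 72 h and 133 at 48 h in cnb1Δ replicate 1, against 28.5 and 26.0 (72 h) and 19.6 and 16.2 (48 h) in replicates 2 and 3. In WT it had 196 CPM at 72 h and 164 at 48 h in replicate 1, against 13.5 and 124 (72 h) and 4.48 and 34.2 (48 h). Replicate 1 was highest everywhere, but in WT replicate 3 came much closer to it than replicate 2 (2.996 ± 0.60). TIR4 had 125 to 299.5 CPM in the 4 libraries against 19.8 to 121 CPM in the other 8 (2.81 ± 0.45). PAU5 had 71.9 to 146 CPM against 4.07 to 34.4 CPM (3.81 ± 0.54). TIR3 and TIR1 had offsets of 2.20 ± 0.32 and 1.98 ± 0.30.

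On a list of 21 sterol uptake and anaerobic growth genes, drawn up after values of these genes had been seen, 11 lay above and 1 below in all 4 groups (median 0.48). Of the 11, 6 are DAN and TIR genes already counted. PDR11 (0.22), SUT1 (0.08) and SUT2 (−0.37), named after their values were seen, did not lie outside in all 4 groups, and ARE2 (−0.49), likewise, lay below in all 4. AUS1, for the importer that takes up sterol in the absence of oxygen, had 345 and 230.1 CPM in cnb1Δ and 398 and 291 CPM in WT (72 h and 48 h) in replicate 1, against 86.5 to 214 CPM in the other 8 (1.47 ± 0.28). PRY1, for a secreted sterol-binding protein, reached 1000.1 to 1658 CPM against 232 to 752 CPM (1.79 ± 0.38). Both had their 4 highest values of all 24 libraries in these 4. Synthesis of ergosterol did not go the same way: of 25 genes 1 lay above and 8 below, and ERG11, for the lanosterol demethylase, had 212 and 437 CPM in cnb1Δ and 565 and 269 CPM in WT in replicate 1, against 399 to 1171 CPM in the 8 others (−1.02 ± 0.73). Nor did every low-oxygen gene rank high. Of 10 on that list 3 lay above and 0 below (median 0.09). ANB1, the eIF5A copy of low-oxygen cells, had 41.9 to 91.0 CPM against 21.0 to 35.7 CPM (1.28 ± 0.64), opposite to its aerobic copy HYP2 (−0.90 ± 0.39), and the reads of these similar genes may be shared. The COX5B subunit gene had an offset of 0.88 ± 0.38. HEM13 (−0.44 ± 1.03), for a heme synthesis enzyme, and the repressor gene ROX1 (0.08 ± 0.35) did not lie outside in all 4 groups.

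Respiration genes were lower as a list, but not all of its parts. Of 34, 1 lay above and 19 below in all 4 groups (median −0.33), and 9 had their 4 lowest values of all 24 libraries there. Of its ATP synthase genes, looked at after their values were seen, ATP20 (−0.42) and ATP19 (−0.26) lay below in all 4. The others lay between −0.14 (ATP5) and 0.10 (ATP7), with none outside in all 4 groups. COX6, for a cytochrome oxidase subunit, had 8.52 and 15.2 CPM in cnb1Δ and 12.4 and 7.97 CPM in WT in replicate 1 (72 h and 48 h), against 17.4 to 23.5 CPM in the other 8 (−0.89 ± 0.50). Of the paired external NADH dehydrogenases, NDE1 was lower (43.6 to 85.4 CPM against 90.3 to 141 CPM, −0.90 ± 0.41) and the minor NDE2 higher (3.17 to 9.06 CPM against 0.647 to 3.33 CPM, 2.09 ± 0.68). CYC1, for cytochrome c, was low in all late libraries, at 0.122 to 0.633 CPM against 0.596 to 2.32 CPM, and its offset (−1.62 ± 0.57) did not hold in all 4 groups.

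Hexose transport and glucose sensing genes were higher as a list: 13 of 22 lay above, 1 below and 6 were set apart (median 0.62, between 0.50 and 0.64 in each of the 4 groups). By the mean log2 CPM of the list, replicate 2 was the lowest library of every group, those at 0 h and 12 h included. In WT at 72 h replicate 1 stood at 0.63, replicate 3 at 0.45 and replicate 2 at −0.10, relative to the 0 h libraries. HXT5, for a hexose transporter of slowly growing cells, had 28.2 CPM at 72 h and 16.3 at 48 h in cnb1Δ replicate 1, against 1.92 and 7.31 (72 h) and 2.36 and 4.82 (48 h) in replicates 2 and 3. In WT it had 152 CPM at 72 h and 348 at 48 h in replicate 1, against 54.2 and 112 (72 h) and 28.4 and 34.3 (48 h). The WT libraries lay above the cnb1Δ libraries whatever the replicate (2.40 ± 1.07). HXT4, for a high-affinity transporter, had 60.9 to 144 CPM against 7.95 to 71.1 CPM (1.98 ± 0.80), with replicate 2 the lowest library of each late group. MTH1, which restrains the glucose sensor signal, had 57.6 to 82.8 CPM against 14.8 to 47.9 CPM (1.32 ± 0.20). HXK1, the hexokinase induced when glucose falls, had an offset of 1.14 ± 0.57, while HXK2, the hexokinase of cells rich in glucose, stood at 0.01 ± 0.20. Of 18 glycolysis genes 3 lay above (16.7%) and 6 below (33.3%), beside 19.1% and 13.2% of all genes, with a median of −0.28. ENO2, for enolase, had 6470.4 to 10004 CPM in replicate 1 against 9276 to 14967 CPM (−0.71 ± 0.29). The minor pyruvate decarboxylase gene PDC6 had an offset of 1.83 ± 1.03.

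**Figure D3:**
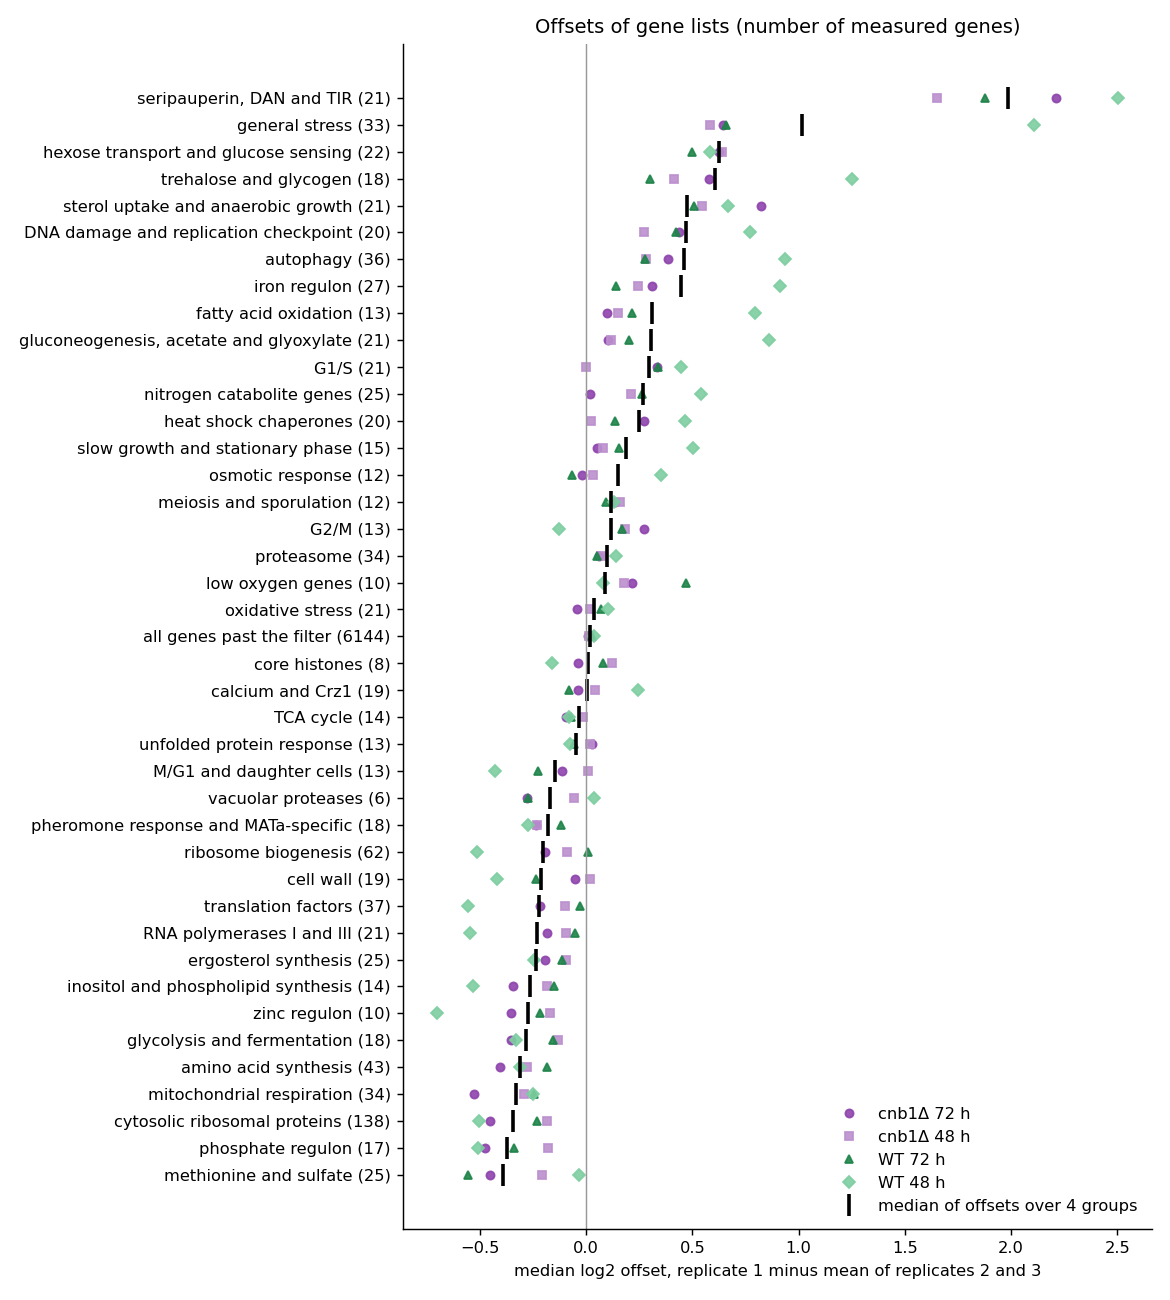
Median log2 offset of replicate 1 over the members of each gene list, with the number of measured genes; coloured points are the 4 groups and black bars the medians of the offset over all 4. Seripauperin, DAN and TIR genes (1.98) and general stress genes (1.01) stand highest, ribosomal protein genes at −0.34, and WT at 48 h lies furthest out for many lists.

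The single highest gene of the naming rule was HUG1 (YML058W-A, chromosome XIII, 158760 to 158966), for a small inhibitor of ribonucleotide reductase that DNA damage induces. In cnb1Δ it had 99.1 CPM at 72 h and 59.4 at 48 h in replicate 1, against 4.997 and 4.87 (72 h) and 3.81 and 3.35 (48 h) in replicates 2 and 3. In WT it had 342 CPM at 72 h and 505 at 48 h in replicate 1, against 8.26 and 126 (72 h) and 4.85 and 12.9 (48 h). Apart from the 126 CPM in replicate 3 of WT at 72 h, no library outside the 4 passed 12.9 CPM, and the offset was 4.43 ± 1.10. RNR3 (YIL066C, chromosome IX, 238099 to 240708), for the damage-induced large subunit of ribonucleotide reductase, repeated this: 103 and 62.9 CPM in cnb1Δ and 323 and 353 CPM in WT (72 h and 48 h) in replicate 1, against 10.1 to 107 CPM in the other 8 (3.24 ± 0.74). The 107 CPM was again replicate 3 of WT at 72 h. Of 20 DNA damage and checkpoint genes, a list drawn up after HUG1 and RNR3 had been seen, 14 lay above and 0 below, but 3 were set apart and the median was 0.47. RNR1 had 747 to 1625 CPM against 445 to 903 CPM (0.81 ± 0.25). RNR4 (0.64 ± 0.40) and RNR2 (0.48 ± 0.30), named after their values were seen, and the checkpoint kinase gene DUN1 (0.17 ± 0.18) lay lower.

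Iron regulon genes, which the factors Aft1 and Aft2 raise when iron is short, stood above in 12 of 27 cases and below in 1 (median 0.44, between 0.14 in WT at 72 h and 0.91 in WT at 48 h). LSO1, a small iron-responsive gene, had 1030.1 and 578 CPM in cnb1Δ and 1019.7 and 1213 CPM in WT (72 h and 48 h) in replicate 1, against 92.3 to 470.3 CPM in the other 8 (2.40 ± 0.63). HMX1, for heme oxygenase, had 119 to 379.9 CPM against 19.1 to 145 CPM (1.98 ± 1.29). FRE4, a reductase gene of the same list, went the other way, with 4.87 to 28.1 CPM against 14.2 to 60.4 CPM (−0.94 ± 0.43). Autophagy genes were above in 22 of 36 cases and below in 1 (median 0.46). ATG39, for a receptor that marks the nuclear envelope for degradation, had 4.27 to 7.54 CPM against 0.786 to 3.96 CPM (1.58 ± 0.97), and ATG32, for the receptor of mitochondria, had 50.0 to 86.3 CPM against 23.5 to 39.7 CPM (1.08 ± 0.53). PRB1, for vacuolar protease B, had an offset of 1.34 ± 0.44, though the median of the 6 vacuolar protease genes was −0.17. Of 19 calcium and Crz1 genes 3 lay above (15.8%) and 1 below (5.26%), beside 19.1% and 13.2% of all genes. Their median was 0.00, or −0.01 with RLE size factors. CMK1, for a calmodulin-dependent kinase, had 76.4 to 114 CPM against 45.4 to 80.1 CPM (0.70 ± 0.06).

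A pair of transporter genes stood out as well, ATR2, of a family of boron and drug exporters, and NFT1, of the ABC family. ATR2 had 10.97 to 39.8 CPM in the 4 libraries against 0.928 to 5.202 CPM in the other 8 (3.83 ± 0.67). NFT1 had 31.7 to 84.6 CPM against 8.97 to 12.9 CPM (2.15 ± 0.45). In both the 4 libraries were the highest of all 24.

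Among the genes that were lower, IMD2, for IMP dehydrogenase in GTP synthesis, was furthest down. In cnb1Δ it had 3.45 CPM at 72 h and 19.6 at 48 h in replicate 1, against 35.0 and 22.5 (72 h) and 75.9 and 38.8 (48 h) in replicates 2 and 3. In WT it had 3.65 CPM at 72 h and 2.68 at 48 h in replicate 1, against 14.98 and 7.51 (72 h) and 26.2 and 18.8 (48 h). It stood at 350.1 to 399 CPM at 0 h, so that all late libraries were far below that level and replicate 1 lowest (−2.24 ± 0.87). IMD2 has close relatives, so its reads are uncertain. SFK1, for a plasma membrane protein of phosphoinositide signalling, had 16.8 to 28.8 CPM against 39.6 to 65.0 CPM (−1.15 ± 0.29), the 4 lowest of all 24. The neighbouring wall-related genes BSC1 (−1.37 ± 0.94) and PRM7 (−1.28 ± 0.85) were both lower, and reads of such neighbours are uncertain. Amino acid synthesis was lower as a list, with 1 of 43 genes above and 22 below (median −0.31). LEU1, for isopropylmalate isomerase, had 248 and 335 CPM in cnb1Δ and 103 and 99.7 CPM in WT (72 h and 48 h) in replicate 1, against 227 to 645 CPM in the other 8 (−1.10 ± 0.64). LEU9 (−0.95 ± 0.57) and ILV3 (−0.88 ± 0.44), of the same branched-chain pathway, followed. Of 25 methionine and sulfate genes 1 lay above and 8 below (median −0.39), with MET6, for methionine synthase, at −0.91 ± 0.31. Of 17 phosphate genes 1 lay above and 6 below (median −0.37), with PHO11 at −1.12 ± 0.39, an acid phosphatase gene that is nearly identical to PHO12.

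The motifs of the promoters shown were counted in all such windows, as a description with no test. The stress element core AGGGG, on either strand, was in 23.5% of 6001 windows of all genes and in 52.5% of the 122 windows of genes set apart above. Among the 16 windows of genes set apart below it was in 37.5%. In the general stress list 93.9% of 33 windows held it, and in the trehalose and glycogen list 83.3% of 18. The general stress list holds genes known for the stress response, so a high share is partly given by how it was made. Of these lists, 16 and 5 genes were themselves set apart above, so the shares overlap. TCGTATA was in 4.58% of all windows, in 12.3% of those set apart above and in 42.9% of 21 windows of seripauperin, DAN and TIR genes. GTTGCC was in 8.77% of all windows, in 9.84% of those set apart above and in 40.0% of 20 windows of DNA damage and checkpoint genes. That last list was drawn up after HUG1 and RNR3 had been seen, and both are among its members.

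Whether replicate 1 already stood apart earlier can be tested, because its choice did not rest on the 12 libraries at 0 h and 12 h. None of 6172 genes was called at 0 h and 12 h (0%) by edgeR's quasi-likelihood test at an adjusted p under 0.05, and 376 (6.09%) had an unadjusted p under 0.05. DESeq2 called 1. The lowest adjusted p in edgeR was 0.175, for YSY6 (−0.64 ± 0.10). Without replicate 3 edgeR called 314, and without replicate 2 it called 1. In cnb1Δ the counts of replicates 1 and 3 were close at these times, with a chi-square per degree of freedom of 4.61 at 12 h and 5.39 at 0 h. Replicate 2 lay further from both, at 49.6 (12 h) and 32.0 (0 h) against replicate 1. Against replicate 3 it was 55.9 and 32.0. The early test pools replicates 2 and 3, so their difference adds to its spread. HSP26 had an early offset of 0.09 ± 0.11 (edgeR adjusted p = 0.835), DAN1 of −0.53 ± 0.38 (0.727), HUG1 of −0.41 ± 0.21 (0.727) and IMD2 of 0.01 ± 0.13 (0.990). Against their late offsets of 3.39, 2.996, 4.43 and −2.24 these are small. Of the 136 genes set apart above, 125 were tested early; 89 had a positive and 36 a negative early offset, with a median of 0.14 and 0 called, where over all genes 3121 of 6172 were positive. The early offsets of these 125 reached at most 0.68. Of the 21 set apart below 10 were positive and 11 negative, with a median of −0.01.

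**Figure D4:**
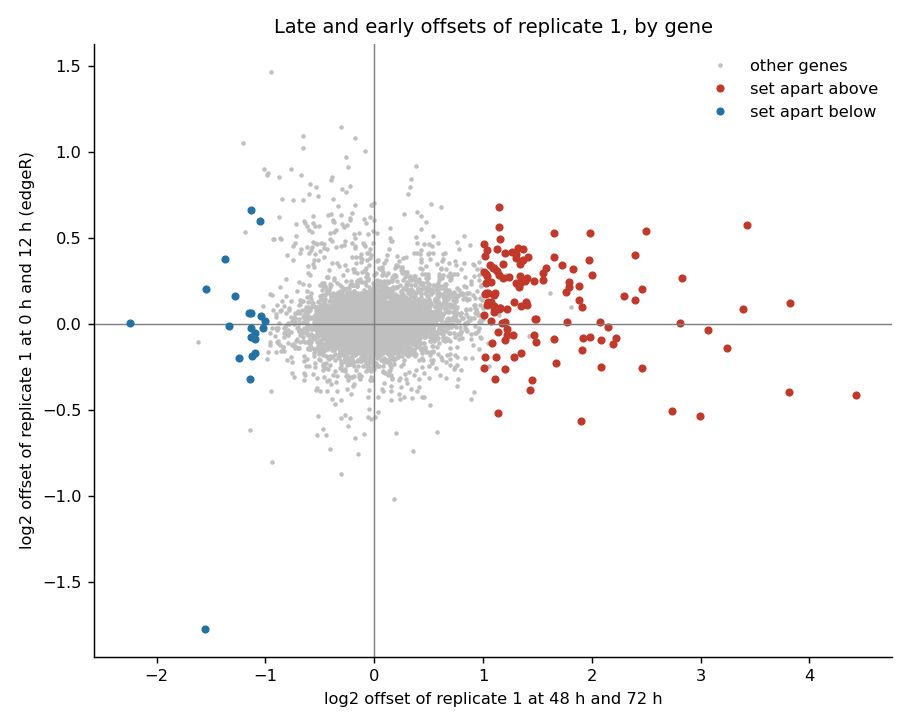
Each point is 1 gene, with the log2 offset of replicate 1 at 48 h and 72 h on the horizontal axis and the edgeR log2 offset of replicate 1 at 0 h and 12 h on the vertical axis; red genes were set apart above and blue genes below at the late times. The 125 red genes spread between −0.56 and 0.68 on the vertical axis, while their late offsets reach 4.43.

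The change at 12 h in CaCl2 shares no library with the late offsets, and was set beside them. Of the 125 genes set apart above and tested, 26 rose and 30 fell at 12 h against 0 h in cnb1Δ (20.8% and 24%), where 27.8% and 28.8% of all genes did (edgeR, 3496 genes in all, and 1982 without replicate 1). In WT 42 rose and 19 fell (33.6% and 15.2%), beside 30.5% and 29.6% of all genes. Of the 21 set apart below 1 rose and 14 fell in cnb1Δ, and 4 rose and 12 fell in WT. HUG1 fell at 12 h in cnb1Δ (−1.73 ± 0.31, edgeR adjusted p = 0.000583) and had −0.09 ± 0.30 in WT (0.817). DAN1 rose in WT (2.83 ± 0.52, edgeR adjusted p = 0.000493) and had −0.69 ± 0.53 in cnb1Δ (0.278). LSO1 rose in both strains, by 1.84 ± 0.18 in cnb1Δ and 5.28 ± 0.19 in WT (edgeR adjusted p = 6.49e-06 and 6.96e-10).

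The offsets of the 2 strains were also compared directly. The libraries were chosen for deviating together in both strains, in these same late values, so that this comparison is not free of the choice. It also counts the 72 h and 48 h libraries of a strain as independent. In cnb1Δ the same-numbered libraries of these times deviated together (correlations of 0.69, 0.63 and 0.53). In WT those of replicates 1 and 2 did so as well (0.63 and 0.67), while replicate 3 had 0.04. The p-values of the comparison of strains may then be too small. Of 6144 genes 1 (0.0163%) had a different offset in cnb1Δ than in WT, and 265 (4.31%) had an unadjusted p under 0.05. That gene was TPO4, for a polyamine exporter. In replicate 1 it had 17.9 and 16.6 CPM in cnb1Δ (72 h and 48 h), against 17.3 and 16.3 (72 h) and 16.2 and 16.3 CPM (48 h) in replicates 2 and 3. In WT replicate 1 it had 29.6 and 12.9 CPM (72 h and 48 h), against 80.5 and 92.1 (72 h) and 25.6 and 27.9 CPM (48 h) in replicates 2 and 3. The offset was thus near 0 in cnb1Δ and low in WT, a difference of 1.35 ± 0.16 (edgeR adjusted p = 0.0460), which ended when no filter on low counts was used. HSP26 had a difference of −0.40 ± 0.69 and HUG1 of 0.16 ± 1.26 (edgeR adjusted p = 0.928 and 0.989). Between 72 h and 48 h edgeR called 0 of 6144 genes (0%), with 181 (2.95%) at an unadjusted p under 0.05 and 2 called by DESeq2. The libraries were chosen from late values of both times, so the comparison of times is not free of the choice either. Since most same-numbered libraries of the 2 times deviated together, its p-values may be too large. A p that missed the threshold does not show that the offsets were equal.

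In comparisons of the groups these 4 libraries are 1 of 3 replicates each. Against 0 h, edgeR called 3731 genes in cnb1Δ at 72 h (59.7%), 3460 in cnb1Δ at 48 h (55.3%), 4034 in WT at 72 h (64.5%) and 3981 in WT at 48 h (63.7%). Without the late replicate 1 libraries the counts were 3792, 3675, 4127 and 4032. Of the calls with all libraries, 93.4%, 95.7%, 95.4% and 89.4% were kept. The comparison of strains was more sensitive. At 72 h cnb1Δ differed from WT in 570 genes (9.12%), and in 654 without replicate 1, 339 without replicate 2 and 183 without replicate 3. At 48 h it differed in 306 genes (4.89%), and in 524, 189 and 73 genes without replicate 1, 2 and 3. With all libraries kept and the replicate number as a block, which pairs the libraries of the strains at these times, 798 genes were called at 72 h and 467 at 48 h. Leaving out replicate 1 thus raised both counts while leaving out either other replicate lowered them. Since replicate 1 was chosen for lying apart, leaving it out narrows the spread by construction, and the counts without it are a description.

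**Figure D5:**
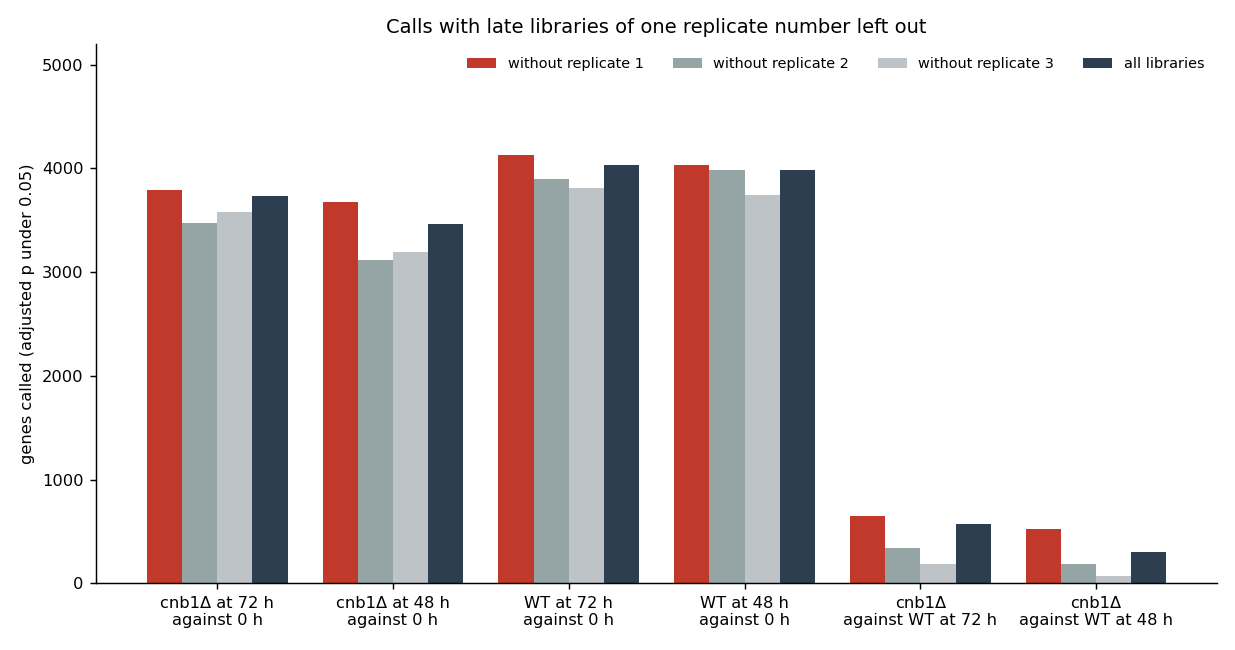
Number of genes called at an adjusted p under 0.05 in 6 comparisons, with the late libraries of replicate 1, 2 or 3 left out and with all 24 libraries. For cnb1Δ against WT the count without replicate 1 is highest (654 at 72 h and 524 at 48 h).

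Single genes show how far the replicate 1 libraries carried a group. HUG1, RNR3, TMA10, LSO1 and HSP26 were named for high offsets in these same libraries. A smaller rise without those libraries is therefore given by the choice, and the values are a description. HUG1 had a log2 fold change of 4.66 in WT at 48 h against 0 h (edgeR adjusted p = 0.0156) and 0.39 without the late replicate 1 libraries. In cnb1Δ it had 2.01 at 72 h and 1.30 at 48 h, neither called, against −0.88 and −1.34 without them. RNR3 in WT at 48 h stood at 3.38 (edgeR adjusted p = 0.0143) and without them at 0.69. TMA10 in WT at 48 h stood at 3.45 (edgeR adjusted p = 0.0238) and without them at 0.43. Some rises rested on all replicates: LSO1 rose by 7.68 in WT at 48 h and by 5.99 without replicate 1, and by 6.52 and 5.11 in cnb1Δ at 72 h. Between strains at 72 h, HSP26 had −1.44 in cnb1Δ against WT with all libraries (edgeR adjusted p = 0.476) and −2.11 without replicate 1, and HUG1 had −2.13 (0.403) and −3.75. For both genes replicate 3 of WT at 72 h stood well above replicate 2, as given above. The differences without replicate 1 thus lean mostly on that library.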

How the data were processed

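RNA was taken from 24 yeast samples, 3 replicates of 2 strains at 4 times, and sequenced as polyadenylated libraries, per the labels' protocols. The authors deposited whole-number counts per gene (7126 genes) and TPM (6744 genes). Build R64, featureCounts and DESeq2 are listed in the submitters' processing notes; the sources used here do not give the aligner or the strand setting. The count file itself named 5110 genes, and RefSeq names were found for 240 others. Groups, times and replicate numbers were taken from the labels. These call the replicates separate time courses but do not say whether samples of a time course share a culture. The p-values measure the spread between these samples.

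Computed here: counts were scaled with TMM, filtered with filterByExpr and tested with edgeR 4.0.16 (quasi-likelihood test, Benjamini-Hochberg adjusted p under 0.05) in R 4.3.3, with DESeq2 1.42.0 as an alternative. Offsets used log2 CPM with a prior count of 2. The early test fitted group means plus 1 replicate 1 term over 12 libraries (7 residual degrees of freedom), the tests between strains and between times 12 late libraries (5), and the group comparisons 8 means over 24 libraries (16). The log2 fold changes of those tests are given ± SE. The steps were tested on simulated data. Replicate numbers paired the strains at 72 h (deviations of same-numbered libraries correlated at 0.69, 0.58 and 0.31) and at 48 h (0.57, 0.16 and 0.51). They also paired 72 h with 48 h in cnb1Δ (0.69, 0.63 and 0.53), and 12 h with 0 h in WT (0.40, 0.23 and 0.33). In WT, 72 h and 48 h correlated at 0.63 and 0.67 for replicates 1 and 2, and at 0.04 for replicate 3.

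The libraries, members and gene lists were chosen with earlier results of these data known, and 2 lists were added after values were seen. Genes named had a standard symbol, at least 20 CPM and replicate 1 outside both others in all 4 groups, whatever the size of the offset. Of these the 15 highest and 15 lowest were taken. To them came up to 6 members of each list with the largest offsets and up to 2 with the smallest. Also named were the genes called in a test of offsets and the markers. RLE size factors, total counts, no filter, TPM with 1 or 0.1 added, another prior count and leaving out each replicate were tried.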

Additional observations from a re-analysis of the deposited data

Results flagged for a closer look

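TPO4, for a polyamine exporter, stood out because the offset of replicate 1 differed between the strains in a direct test: the offset in cnb1Δ minus that in WT was 1.35 ± 0.16 (SE), with an edgeR adjusted p of 0.0460. It was the 1 gene of 6144 called. The libraries were chosen for deviating together in both strains and the test counts 72 h and 48 h libraries as independent, so this p may be too small. The call was lost without a filter on low counts.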

How the results depend on the processing

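Of the counts of genes set apart, 136 above and 21 below, the second moved most: it was 9 with total counts, 5 with TPM plus 1 and 6 with TPM plus 0.1 (208 above). It was 147 at a size of 0.58 (350 above), 41 over the 3 groups without cnb1Δ at 48 h, a setting chosen after seeing the data, and 20 to 63 when replicate 2 or 3 was left out. The early test called 0 genes, 1 with DESeq2, and 1 to 314 without a replicate. The test between strains called 1, with 0 without a filter, 8 with DESeq2 and 25 to 146 without a replicate; the test between times called 0, with 2 by DESeq2 and 20 to 77 without a replicate. Without a replicate, cnb1Δ against WT gave 183 to 654 genes at 72 h and 73 to 524 at 48 h, and cnb1Δ at 12 h against 0 h gave 1982 to 3450. The replicate block gave 467 genes for cnb1Δ against WT at 48 h and moved no other count by over 1.5 times. List medians near 0 changed sign: TCA cycle genes had 0.10 with total counts and 0.14 with TPM, unfolded protein response genes 0.080 and 0.13, and M/G1 genes 0.029 and vacuolar proteases 0.0034 with TPM. Core histones had −0.0097 with RLE and −0.052 to 0.073 without replicate 2 or 3, and calcium and Crz1 genes −0.013 with RLE and −0.047 to 0.099. Without replicate 1, cnb1Δ against 0 h changed sign for HUG1 (−0.88 at 72 h, −1.34 at 48 h), TIR4 (−0.50 and −0.44) and RNR3 (−0.17 and −0.18), and cnb1Δ against WT for TMA10 (−0.13 and 0.88). The cause was not tested.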
